A study of Rattus norvegicus with 10 samples.

Results

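The Slc12 family comprises the cation-chloride cotransporters, membrane proteins most of which carry chloride across the cell membrane together with sodium, potassium or both. Members were chosen by gene symbol from a list of 6 genes, and the family was put forward because *Slc12a7* ranked high in the authors' own comparison of the diets. That comparison is not used here. A row was present for 5 of the 6 genes, *Slc12a2*, *Slc12a4*, *Slc12a5*, *Slc12a7* and *Slc12a9*, among 12828 genes of the table, and *Slc12a8* had no row.

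RNA came from the arcuate nucleus of the hypothalamus (ARC) of 10 Wistar rat dams, taken upon parturition. The study's methods describe a free-hand dissection of the ARC from a coronal slice of frozen brain. How much neighbouring tissue the samples held was not tested. Of these, 5 dams had been fed a diet with a 5X level of folic acid (5X-FA) during pregnancy, and 5 had been fed 5X methylfolate (5X-MTHF) in its place. Both groups therefore received folate above the recommended level, in different forms, and neither is an unsupplemented control. The per-sample columns carry only running numbers that match no label, so no value per dam or per diet is given, and whether any member differed between the diets was not analysed here.

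Chloride gradients decide whether GABA, the main inhibitory transmitter of the hypothalamus, silences or excites a neuron. The sodium-potassium-chloride importer NKCC1 (*Slc12a2*) raises chloride in the cell, and the potassium-chloride exporter KCC2 (*Slc12a5*), which is largely restricted to neurons, lowers it. Most adult neurons hold chloride low, whereas gonadotropin-releasing hormone neurons of the hypothalamus are known to keep it high. WNK kinases set the balance through the kinases SPAK (*Stk39*) and OSR1 (*Oxsr1*), which activate the importer and inhibit the exporters.

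The quantity reported for each gene is the authors' average log2 CPM, in which the reads of a gene are scaled to library size (CPM). It is 1 value on a log2 scale, taken to stand for all libraries because its column names no sample. It carries no error, since the spread between dams was not obtained. The study's methods state only an approximate depth per sample, and the values used do not give the reads counted per library. CPM grows with transcript length and no transcript length was at hand, so the order of these values is an order of read shares and not of transcript numbers. The rows of the table spanned values of -2.07 to 14.56, and the median row stood at 4.94. In bulk tissue, fewer cells of a type and less RNA per cell cannot be told apart.

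The main chloride importer and exporter of brain both stood among the most heavily sequenced genes of the ARC. For *Slc12a5* (KCC2) the authors' average log2 CPM was 8.64, or 398 CPM, and 97.7% of rows had a lower value. It ranked 298 from the top of the table. For *Slc12a2* (NKCC1) the authors' average was 8.35, or 325 CPM, with 96.9% of rows below it and a rank of 404. These averages are taken to pool both diets, and nothing in them shows which cells of the ARC the reads came from.

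The other 3 members with a row, the potassium-chloride exporters *Slc12a4* and *Slc12a7* and their relative *Slc12a9*, had middling to low read shares. *Slc12a4* (KCC1), a widely expressed exporter that responds to cell swelling, had an average log2 CPM of 4.94, or 30.7 CPM, next to the median row, and ranked 6412 from the top. *Slc12a7* (KCC4), another exporter activated by swelling, had an average of 4.19, or 18.2 CPM, with 34.6% of rows below it. *Slc12a9*, a distant relative known as cotransporter-interacting protein 1, had an average of 4.12, or 17.4 CPM, and 33.4% of rows lay below it. These 3 genes were thus measured from fewer reads than *Slc12a5* and *Slc12a2*, and their counts carry more counting error in proportion.

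**Figure D1:**
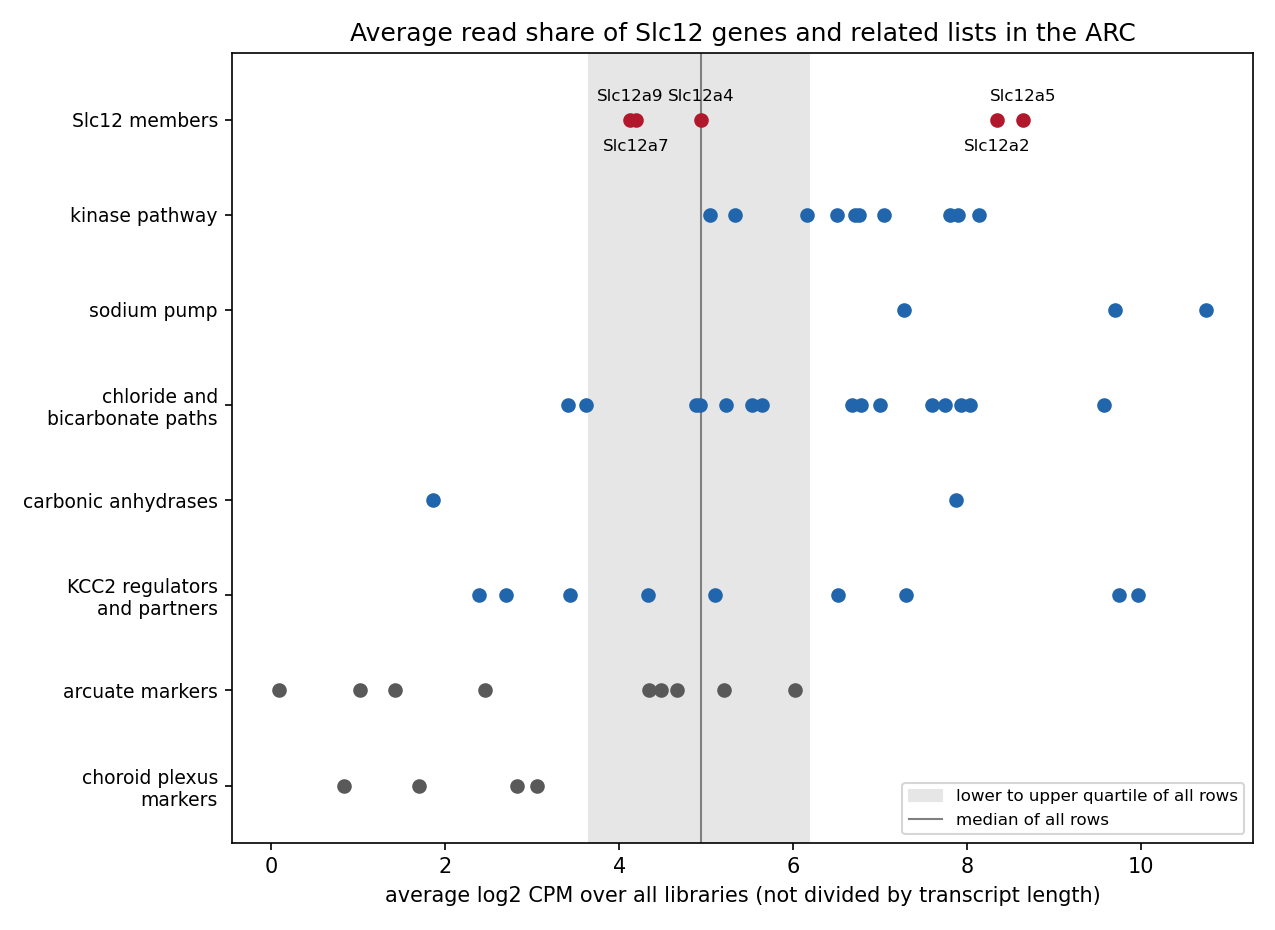
Average log2 CPM over all libraries (horizontal axis, not divided by transcript length) of each gene with a row, 1 point per gene, for the Slc12 members (red), the lists of chloride and volume regulation (blue) and the arcuate and choroid plexus markers (grey). The shaded band runs from the lower to the upper quartile of all 12828 rows and the line is their median of 4.94; *Slc12a5* and *Slc12a2* lie to the right of the band, at 8.64 and 8.35.

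Of the family outside the list, *Slc12a1* (NKCC2) and *Slc12a3* (NCC), the salt importers of the kidney tubule, had no row, as was the case for *Slc12a8*. The study's methods state a filter on genes with few reads, and whether it removed these genes was not tested. No level can be given for a gene without a row.

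All 5 members are protein-coding and lie on different chromosomes of Rnor_6.0. *Slc12a5* (ENSRNOG00000018111) extends from 161425988 to 161462879 of chromosome 3, and *Slc12a2* (ENSRNOG00000015971) from 52917124 to 52985261 of chromosome 18. *Slc12a4* (ENSRNOG00000019651) occupies chromosome 19 from 37917014 to 37938857. *Slc12a7* (ENSRNOG00000016372) occupies chromosome 1 from 32086755 to 32141036, and *Slc12a9* (ENSRNOG00000048487) chromosome 12 from 22434814 to 22451263. Their genomic spans, introns included, ranged from 16.4 kb for *Slc12a9* to 68.1 kb for *Slc12a2*.

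None of the 5 members overlapped another row of the table, so reads counted for them were not shared with a listed gene by position. Neighbours nevertheless lay close in some places. *Lcat*, which encodes a cholesterol-esterifying enzyme and had an average log2 CPM of 4.78, ended 200 bases before *Slc12a4*. *Trip6*, with an average of 2.78, began 332 bases after *Slc12a9*. *Nkd2* lay 1877 bases from *Slc12a7* and *Ncoa5* 2863 bases from *Slc12a5*. *Slc12a2* stood apart, with its nearest row, *Ctxn3*, 365 kb away.

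**Figure D2:**
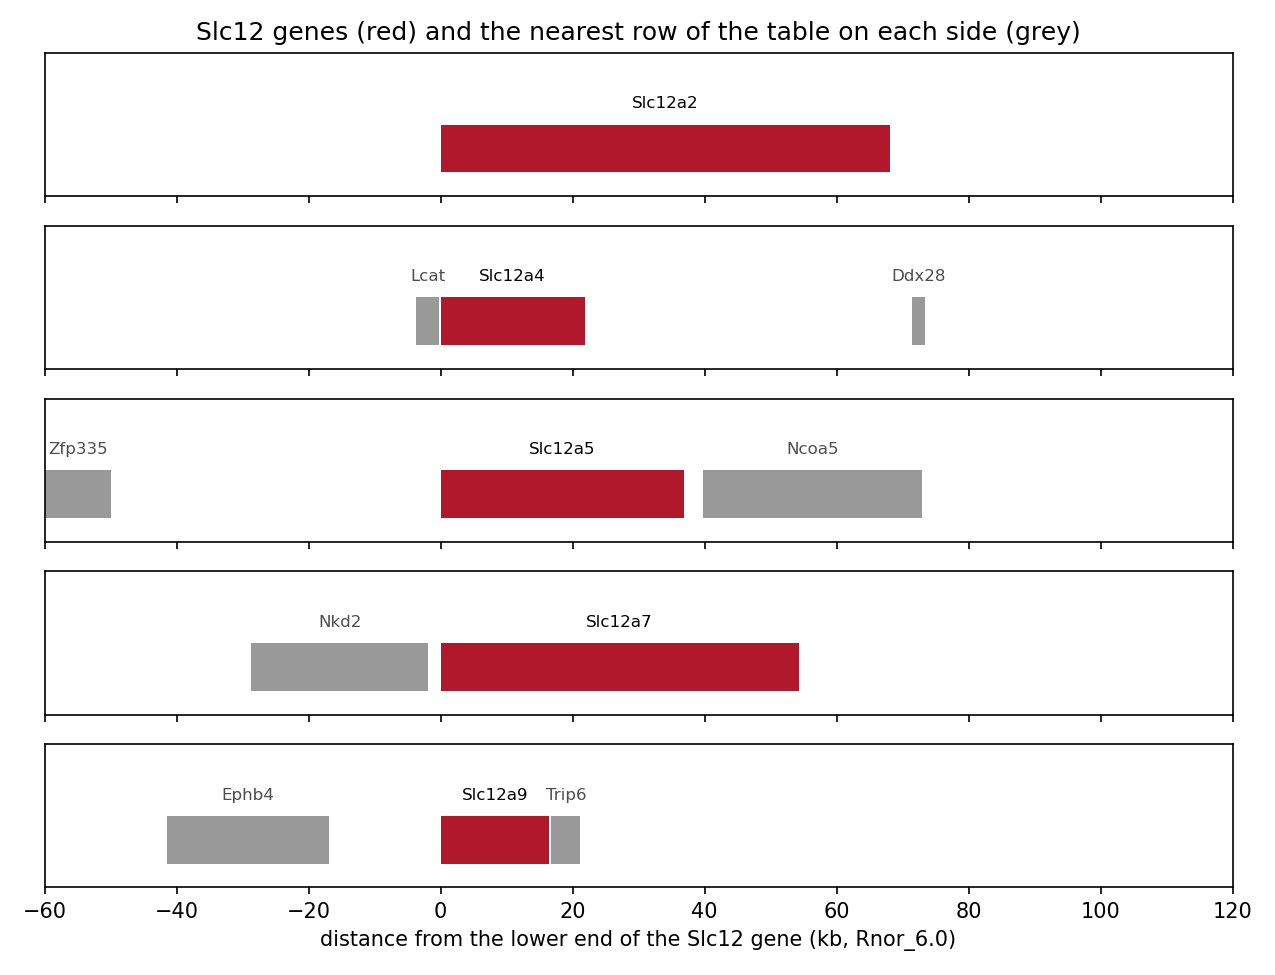
Extent of each Slc12 member (red) and of the nearest row of the table on each side (grey, where within the plotted range), as distance in kb from the lower end of the member in Rnor_6.0. *Lcat* and *Trip6* almost touch *Slc12a4* and *Slc12a9*, at gaps of 200 and 332 bases, whereas no row lies near *Slc12a2*.

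The promoters of the members differed in base composition. RefSeq promoter windows of 300 bases (250 before to 50 after the transcript start, build GRCr8) matched all 6 listed genes by symbol. The windows of *Slc12a5* and *Slc12a7* are shown because, among members with a row, they held the fewest and the most matches to GGGCGG, the letters of a GC box bound by Sp1-type factors. Capitals mark GGGCGG on either strand and, in *Slc12a7*, CACGTG, the letters of an E-box. The *Slc12a5* window is chr3:174115583-174115882 on the + strand and the *Slc12a7* window is chr1:31354576-31354875 on the - strand, both of GRCr8 and written 5′ to 3′.
Slc12a5: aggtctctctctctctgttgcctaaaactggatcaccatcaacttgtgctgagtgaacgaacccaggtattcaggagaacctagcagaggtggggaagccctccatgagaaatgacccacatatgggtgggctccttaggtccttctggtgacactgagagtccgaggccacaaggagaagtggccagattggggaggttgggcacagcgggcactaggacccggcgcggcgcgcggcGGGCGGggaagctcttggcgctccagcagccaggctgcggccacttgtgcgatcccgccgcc
Slc12a7: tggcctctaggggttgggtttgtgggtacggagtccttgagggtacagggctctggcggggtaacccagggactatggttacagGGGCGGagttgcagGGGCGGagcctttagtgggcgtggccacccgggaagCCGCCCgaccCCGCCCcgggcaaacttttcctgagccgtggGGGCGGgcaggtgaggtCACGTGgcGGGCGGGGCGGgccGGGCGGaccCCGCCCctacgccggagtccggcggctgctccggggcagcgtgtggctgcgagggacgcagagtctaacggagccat

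GGGCGG was matched at 9 places in *Slc12a7*, 5 in *Slc12a4*, 3 in *Slc12a2*, 2 in *Slc12a9* and 1 in *Slc12a5*, with overlapping matches counted. It was not matched in *Slc12a8*. The letters occur in 63.7% of the 9445 windows whose genes have a row in the table and in 34.9% of all 27455 windows. CACGTG was matched once each in *Slc12a7* and *Slc12a9*, against 9.47% of windows of genes in the table and 6.65% of all windows. CCAAT was matched once in *Slc12a5*, once in *Slc12a9* and at 2 places in *Slc12a8*, and occurs in 37.6% of windows of genes in the table and 37.7% of all windows. TATAAA, present in 6.36% and 14.3% of those windows, was matched in no listed gene. GCGTGGGCG, the letters bound by factors of the Egr family, was likewise matched in none, and occurs in 1.12% and 0.590%. These matches are letters in a window, read on both strands, and were not tested as binding sites. Only 1 window per symbol was read, so letters elsewhere in or near a gene are not covered.

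Counted as CG dinucleotides, the *Slc12a2* window held 52, the *Slc12a4* window 31, the *Slc12a7* window 28, the *Slc12a9* window 21 and the *Slc12a5* window 16. The *Slc12a8* window held 4. Windows of genes in the table had a median of 21, with quartiles of 14 and 29. The share of G and C letters followed the same order, from 80.7% in *Slc12a2* and 74.0% in *Slc12a4* to 61.3% in *Slc12a5* and 54.3% in *Slc12a8*, beside a median of 61.3% for genes in the table. *Slc12a2* and *Slc12a5*, the members with the highest read shares, thus differed widely in CG content, and their windows stood above 98.8% and 30.3% of those of genes in the table. No relation between promoter letters and read share was tested over so few genes.

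**Figure D3:**
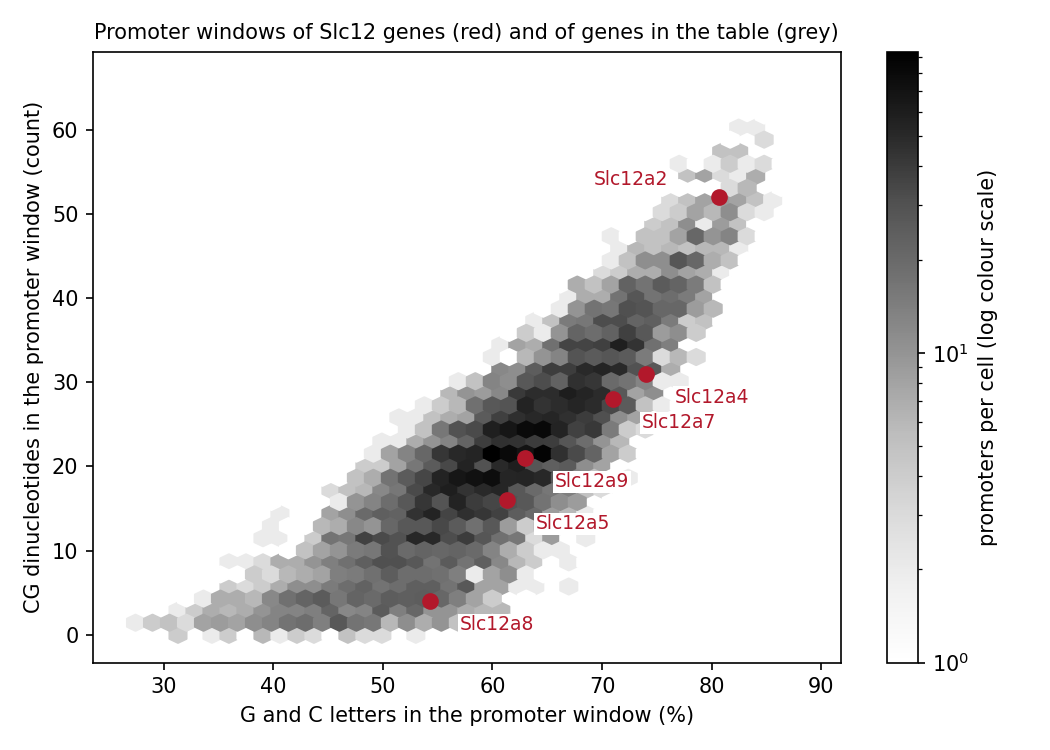
G and C letters in percent (horizontal axis) against the count of CG dinucleotides (vertical axis) in promoter windows of 300 bases from RefSeq GRCr8. Red points are the 6 listed Slc12 genes and grey cells are the 9445 windows of genes in the table, shaded by number on a log scale; *Slc12a2* lies near the upper end with 52 CG dinucleotides and *Slc12a8* near the lower end with 4.

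Genes that regulate or work beside the cotransporters were mostly well represented in the ARC libraries. Of 45 genes of chloride and cell volume regulation, 39 had a row, and 30 of these lay above the median row. Their median average log2 CPM was 6.72, against 4.94 over all rows. This is a description of read shares, and no test of the list was made.

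Nearly the whole kinase pathway that controls the cotransporters was measured. Of 12 genes, 10 had a row, and all 10 lay above the median row. The WNK kinase genes *Wnk1*, *Wnk2* and *Wnk3* had average log2 CPMs of 8.14, 7.04 and 5.33. *Stk39* and *Oxsr1*, whose kinases phosphorylate NKCC1 and the KCCs directly, had averages of 6.72 and 6.76. *Wnk4* and *Klhl3*, which control salt reabsorption in the kidney, had no row.

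The sodium pump builds the sodium and potassium gradients that drive the ion-carrying members. Its accessory subunit genes *Atp1b1*, *Atp1b2* and *Atp1b3* had average log2 CPMs of 10.75, 9.69 and 7.27. The lowest of these 3, *Atp1b3*, still lay above 89.8% of rows.

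Other routes for chloride and bicarbonate gave 15 rows from 16 genes, and 11 lay above the median row. The genes of this group with the most reads were *Ttyh1*, encoding a glial membrane protein of the tweety family, with an average log2 CPM of 9.58, the sodium-bicarbonate cotransporter gene *Slc4a4* with 8.04, and *Slc4a10*, a sodium-driven bicarbonate transporter gene of neurons, with 7.93. Of the carbonic anhydrases, which supply bicarbonate, *Car2* had an average of 7.87 and *Car7* one of 1.85, and *Car12* had no row.

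All 9 listed regulators and partners of KCC2 had a row, and 5 lay above the median row. *Ntrk2*, the receptor gene for brain-derived neurotrophic factor, *Ckb*, encoding brain creatine kinase, and *Pacsin1*, encoding an endocytic adaptor, had average log2 CPMs of 9.97, 9.75 and 7.30. The range of the group reached down to 2.39, the value of *Egr4*, a transcription factor known to drive *Slc12a5*, which was chosen after its value was seen.

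Markers of other cell types bear on where members' reads could come from, and their part in the members' values was not tested. NKCC1 is known to be abundant in choroid plexus, the ventricular epithelium that secretes cerebrospinal fluid. Of 7 choroid plexus markers, 4 had a row, with average log2 CPMs from 0.83 to 3.06, all below the median row, and *Kl*, *Slc4a5* and *Otx2* had none. Neuronal, astrocyte and oligodendrocyte markers, 6 listed and 6 found of each, ran from 6.14 to 11.20, from 5.51 to 10.33 and from 7.26 to 12.59. Oligodendrocyte precursor markers (2 of 2 found) ran from 5.09 to 7.01 and microglial markers (5 of 5 found) from 3.83 to 6.82. Of 5 endothelial markers, 4 had a row, from 4.45 to 6.46, and *Pecam1* had none. Tanycytes and ependymal cells line the ventricle beside the ARC, and 4 of their 6 markers had a row, from 0.08 for *Rax* to 7.32 for *Vim*, while *Col23a1* and *Foxj1* had none. Of 11 arcuate markers, 9 had a row, from 0.08 for *Kiss1* to 6.02 for *Cartpt*, and only 2 of these lay above the median row. *Pomc* and *Agrp*, the defining peptides of the feeding neurons of the ARC, had averages of 4.67 and 1.42, and *Npy* and *Nr5a2* had no row.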

How the data were processed

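Poly-A RNA-seq libraries were made from the ARC of 10 dams, 5 per diet, and grouped by the sample titles. As the study's methods and the submitters' processing notes state, reads were trimmed with Trim Galore 0.5.0, aligned with STAR 2.6.0c to Rnor_6.0 with Ensembl gene models and counted with HTSeq 0.6.1p2, with a minimal filter of 10 reads per gene. The average log2 CPM was deposited by the authors as 1 value per gene, and was read as an average over all libraries because its column names no sample. How that column was computed is not given in the sources used here. The 4 columns of the authors' own comparison give the change between diets on a log2 scale, its F value and the p-value before and after adjustment, and were not used. A further 10 per-sample columns match no sample label and were used in no step.

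The planned test between the diets and its alternatives (pseudocount, low-value filter, replicate left out) could therefore not be made, and levels per kb were not computed because no transcript or coding length was at hand. Percentiles are the share of rows with a lower average. Promoter windows are from RefSeq (GRCr8), 1 window per symbol, limited to windows of 300 unambiguous letters. Gene coordinates are those of the deposited table. Named genes were all members, further Slc12 genes, the WNK, SPAK and OSR1 kinases, accessory sodium pump subunits and the up to 3 highest genes of the remaining chloride and volume regulation groups. Cell type markers were named, beside this rule, as the ends of a range, as defining genes or because they had no row, and *Egr4* after its value was seen. The kinase pathway genes outside those kinases were named only where they had no row. Neighbouring genes were named as the nearest rows by position. Some genes of the lists as first written are not reported here and enter no count of a list. The members and lists were chosen with earlier results of these data known. Calculations were tested on simulated data. Tables were handled in Python 3.11.15 (pandas 2.3.3, numpy 2.4.6), intervals computed with scipy 1.17.1, and plots drawn with matplotlib 3.10.9.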

Additional observations from a re-analysis of the deposited data

How the results depend on the processing

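The percentile of each member was recomputed among protein-coding rows and among rows whose average log2 CPM reached 1 or more. For *Slc12a2* and *Slc12a5* it stayed within the 95% binomial interval of the percentile over all rows. For *Slc12a4*, *Slc12a7* and *Slc12a9* it fell outside that interval in both settings. The interval treats the rows as random draws and does not measure the spread between dams. Leaving out low rows can move a percentile near the top only slightly. The result for *Slc12a2* and *Slc12a5* thus follows largely from their rank. Among protein-coding rows the percentile became 48.6 for *Slc12a4*, 32.9 for *Slc12a7* and 31.7 for *Slc12a9*. Among rows with an average of at least 1 it became 48.5, 32.7 and 31.4, since fewer low rows were counted. The number of chloride and volume regulation genes above the median row was 30 among all rows and 30 against the median of protein-coding rows. Values per kb of transcript or coding sequence were not run. No paired analysis was possible because the per-sample columns carry no replicate label and no test between the diets was made. For the same reason, leaving out a replicate, another pseudocount, another filter, the count tools and the replicate block were not run. The study's methods state an approximate sequencing depth per sample, but the reads counted per library were not obtained. The counting error of the low members was therefore not computed.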
